A study of Mus musculus with 12 samples.

Results

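Replication-dependent core histone genes encode the H2A, H2B, H3 and H4 proteins around which DNA is wound in the nucleosome. They were taken by symbol: H2ac, H2bc, H3c or H4c followed by a number, or the older prefix Hist followed by a cluster number and h, leaving out symbols with the mark -ps. The rule found 60 of the 55471 genes in the deposited table, of which 19 encode H2A, 17 H2B, 12 H3 and 12 H4. In the GENCODE M21 annotation of GRCm38, 50 of them lie on chromosome 13 and 10 on chromosome 3, and 2 (H2ac14 and Hist1h2al) are annotated as pseudogenes.

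These genes are known for being transcribed mainly in S phase, when newly made DNA has to be packed. Their mRNAs typically have no introns and end in a conserved stem-loop, bound by the protein SLBP, in place of a poly(A) tail. Some members of the family are also known to give polyadenylated transcripts in cells that have left the cell cycle, which is the state of most cells of an adult kidney.

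RNA was sequenced from left kidneys of mice, given as strain C57/BL6, in 4 groups. These were Sprr2f knockout (KO) at day 5 of unilateral ureteral obstruction (n = 3), KO at day 0 (n = 4), wild type (WT) at day 5 (n = 3) and WT at day 0 (n = 2). In this model of injury a microvascular clamp on the left ureter stops urine from draining, and the labels' protocol, worded for knockout mice, gives an age of 8 to 12 weeks. Sprr2f encodes a small proline-rich protein. The labels name neither the design of the knockout allele nor a sham operation at day 0. They do not state that the samples of a group came from different animals. Every p-value rests on the spread among these libraries, whose reads within a group differed by more than counting error (chi-square per degree of freedom 6.65 to 62.2 between pairs).

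Each library held 16567256 to 19398882 reads of 50 bases counted to genes. Values are given as scaled CPM, which is the deposited CPM (a count relative to all reads of its library) divided by the library's TMM factor, a scaling factor that compensates for differences in RNA composition. With library size in place of these factors, the median log2 fold change of all genes tested moved up by 0.38 in KO and 0.37 in WT, so changes are relative to the factors. Sprr2f itself stood at 0 to 3.53 scaled CPM in KO libraries at day 5, 0 to 0.309 in KO at day 0, 22.5 to 49.9 in WT at day 5 and 0 to 0.121 in WT at day 0. The series title names female mice, but 7 of the 12 libraries held Y-linked transcripts and 5 held Xist. The Y-linked libraries were 1 of 3 in KO at day 5, 4 of 4 in KO at day 0, 1 of 3 in WT at day 5 and 1 of 2 in WT at day 0. KO at day 5, WT at day 5 and WT at day 0 each held both kinds of library, so each of these groups held more than 1 animal. In KO this pattern overlaps with the day. Log2 differences within the pattern, on log2(scaled CPM + 0.5), are therefore given beside the results for the named members, for Y-linked libraries in KO (1 at day 5 against 4 at day 0) and WT (1 against 1) and for Xist libraries in WT (2 against 1).

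The members differ in how far a 50-base read can tell them apart. Of the 50-base stretches in the annotated transcripts of a member, a median of 38.0% occurred in no other annotated gene. Copies of a family encode nearly the same protein, and much of their coding sequence is shared. H2bc21 had no stretch in common with another gene, H4c8 shared stretches with 11 other genes and H4c12 had 75 stretches of its own. How the authors' counting treated reads that match several genes is not given in the sources used here, so low counts of members with little sequence of their own are uncertain.

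All members together held 42639 reads in the 12 libraries. H2bc4, which encodes an H2B protein, held 34148 of them, or 80.1%. The H2B genes held 37132 reads, the H4 genes 4657, the H3 genes 636 and the H2A genes 214. No read was counted for 15 members, 9 of which are H2A genes, and a further 28 had 1 to 50 reads. Exons of every H2A gene overlap another annotated gene on the opposite strand. Among the other members only H2bc18, H3c13 and H4c2 do so, and these had 0 reads. Whether the counting was stranded is not given in the sources used here. The part of this overlap in the low counts was not tested. With 0 reads in all libraries, a count of up to 3 reads, or 0.0136 CPM over the 12 libraries, cannot be told from 0, a limit that covers counting error only. The 15 members with 0 reads had a median of 30 unique stretches (range 0 to 260), and 5 of them had none. The 45 members with reads had a median of 226 (range 21 to 3717).

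**Figure D1:**
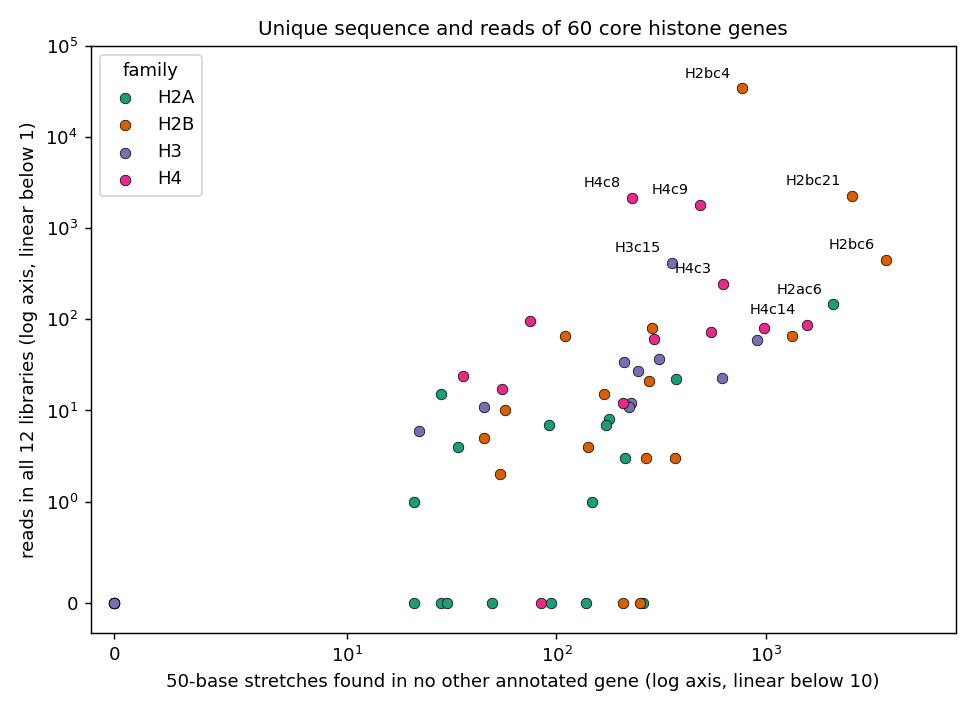
Reads in all 12 libraries (vertical axis, log scale, linear below 1) against the number of 50-base stretches found in no other annotated gene (horizontal axis, log scale, linear below 10) for the 60 core histone genes, coloured by family. H2bc4 stands above all other members with 34148 reads, and the 5 genes without unique stretches lie at 0 reads.

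The tail of the transcript was examined because the label names an mRNA library kit without saying how mRNA was selected. The letters of the stem-loop stood in at least 1 annotated transcript of 39 of the 60 members. Short models, such as that of H4c12 with 312 bases, may end before it, so a missing match says little. The following stem-loops of 16 bases, copied from GENCODE M21 transcripts, belong to 5 members that were called in at least 1 genotype and to H2ac6, the neighbour of H2bc4, with the stem arms in capitals and the loop in lower case.
H4c8: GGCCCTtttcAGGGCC
H4c9: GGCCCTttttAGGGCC
H4c3: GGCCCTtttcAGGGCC
H2bc6: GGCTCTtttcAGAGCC
H3c4: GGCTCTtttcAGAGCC
H2ac6: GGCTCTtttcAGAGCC
The arms of the 3 H4 members shown are alike, as are those of the 3 members that encode H2A, H2B or H3, and the loop of H4c9 differs from the others by a single letter. H4c8 runs on for 46 bases after the stem-loop in its annotated model, H4c9 for 330 and H4c3 for 454. H2bc6 runs on for 1861 bases, H3c4 for 752 and H2ac6 for 2010.

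The most abundant member is 1 of 5 among the 60 with more than 1 annotated exon. H2bc4 (ENSMUSG00000018102, chromosome 13, 23684199 to 23692908, plus strand) has a first exon of 423 bases that holds the coding sequence and a second of 733 bases, 7554 bases downstream, that holds none. Its model contains no match to the stem-loop. Of its stretches unique to the gene, 670 lie in the second exon and 49 in the first. H2bc21 (chromosome 3, 96221119 to 96223738, plus strand), an H2B gene with 1 exon of 2620 bases, had no match to the stem-loop either. Models with more than 100 bases after a stem-loop made up 10 of the 15 members that passed the filter on low values and 6 of the 45 that did not. Those that passed had longer models, with a median of 1020 exon bases against 480, and 620 unique stretches against 139. The part of length in this difference was not tested.

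H2A and H2B genes often stand head to head with a shared region between their starts. With starts at most 500 bases apart, 13 such pairs were found, all of 1 H2A and 1 H2B gene, and in 10 of them the H2A gene had fewer reads. Some of the 10 had too few reads to rank, such as Hist1h2an with 0 and Hist1h2bp with 3. H2ac7 and H2bc7, with 7 and 4 reads, ran the other way. Hist1h2ap with Hist1h2br, and H2ac1 with H2bc1, tied at 0. H2ac6 and H2bc4 start 250 bases apart and had 146 and 34148 reads. H2ac20 and H2bc21 start 238 bases apart and had 3 and 2258 reads. H2ac8 and H2bc8 start 175 bases apart and had 22 and 80 reads. Reads per gene here depend on length and unique sequence as well as on transcript level. Each H2A gene of these pairs also overlaps a gene on the opposite strand, which its H2B partner does not. The effect of this on the counts was not tested.

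Promoter sequence from RefSeq (GRCm38.p6, 250 bases before to 50 after the start) was at hand for 45 of the 60 members. H2bc4 and H2bc21 are not among these 45. The octamer ATTTGCAT, a known element of H2B promoters, was searched on both strands and stood in 12 of the 45, 6 of them H2A and 6 H2B genes, and in none of the 10 H3 or 9 H4 genes. It was present in 1.75% of all 27025 promoters of the same length. The motif CCAAT stood in 39 of the 45 members and 37.9% of all promoters, and TATAAA in 26 of the 45 and 14.2% of all. The 150 bases before the start are shown for the H2A gene that shares its upstream region with H2bc4, for an H2B gene with the octamer, and for the 2 most abundant H4 genes, with any of these 3 motifs, on either strand, in capitals.
H2ac6, chr13:23683960-23684109, minus strand: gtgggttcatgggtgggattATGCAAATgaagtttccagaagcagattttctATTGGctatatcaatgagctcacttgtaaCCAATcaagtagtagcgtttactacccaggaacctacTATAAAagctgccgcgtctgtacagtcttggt
H2bc8, chr13:23571250-23571399, plus strand: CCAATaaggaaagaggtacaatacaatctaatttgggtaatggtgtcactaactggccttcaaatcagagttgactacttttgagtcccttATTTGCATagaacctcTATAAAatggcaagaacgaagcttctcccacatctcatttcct
H4c8, chr13:23530894-23531043, plus strand: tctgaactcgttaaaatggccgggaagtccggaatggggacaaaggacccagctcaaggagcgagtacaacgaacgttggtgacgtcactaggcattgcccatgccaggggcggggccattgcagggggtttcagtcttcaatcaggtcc
H4c9, chr13:22041363-22041512, minus strand: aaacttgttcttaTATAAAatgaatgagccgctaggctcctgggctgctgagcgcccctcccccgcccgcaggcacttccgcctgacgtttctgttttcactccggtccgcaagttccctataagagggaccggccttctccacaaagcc
H2ac6 holds the octamer, CCAAT on both strands and TATAAA, and H2bc8 holds all 3 as well. H4c8 holds none of them in its 300-base window, and H4c9 holds TATAAA alone. A match says only that the letters are there.

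Obstructed kidneys held less counted core histone transcript in both genotypes. How mRNA was selected is not given, so transcripts without a poly(A) tail may be under-represented in these sums. Summed over the 60 members, the level was 135, 126 and 142 scaled CPM in the KO libraries at day 5, against 306, 322, 280 and 269 in KO at day 0. The group means were 134 ± 8.20 (SD, n = 3) in KO at day 5 and 294 ± 24.2 (SD, n = 4) in KO at day 0. In WT the sums were 111, 121 and 116 at day 5 and 264 and 254 at day 0, with means of 116 ± 4.73 (SD, n = 3) and 259 ± 6.43 (SD, n = 2). No day 5 library reached any day 0 library. Most of each sum is H2bc4. Without it the sums were 27.8 ± 4.73 (n = 3) in KO at day 5, 55.1 ± 6.71 (n = 4) in KO at day 0, 26.4 ± 2.91 (n = 3) in WT at day 5 and 49.7 ± 2.98 (n = 2) in WT at day 0 (SD), again without overlap between the days. In bulk kidney tissue, fewer cells of a type and less RNA per cell cannot be told apart.

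The families did not all follow the sum. H4 genes together stood at 12.4 ± 0.114 scaled CPM in KO at day 5 (n = 3) and 37.6 ± 5.53 in KO at day 0 (n = 4), and at 11.8 ± 1.90 in WT at day 5 (n = 3) and 24.3 ± 3.49 in WT at day 0 (n = 2). H2B genes other than H2bc4 stood at 11.6 ± 3.92 in KO at day 5, 13.7 ± 0.960 in KO at day 0, 11.2 ± 1.18 in WT at day 5 and 20.5 ± 5.62 in WT at day 0. H3 genes stood at 2.70 ± 0.816 in KO at day 5, 3.10 ± 0.757 in KO at day 0, 2.63 ± 0.396 in WT at day 5 and 3.17 ± 0.638 in WT at day 0. The H3 sums of both days overlapped in both genotypes. H3c15 held 65.4% of the H3 reads, and without it the H3 genes ran the other way, at 0.739 to 1.53 in KO at day 5, 0.531 to 0.713 in KO at day 0, 1.09 to 1.62 in WT at day 5 and 0.666 to 0.967 in WT at day 0. These H3 sums were higher at day 5 without overlap in either genotype, on 7 to 37 reads per library. H2A genes, with 214 reads in all, stood at 1.08 ± 0.178 in KO at day 5, 0.608 ± 0.168 in KO at day 0, 0.803 ± 0.144 in WT at day 5 and 1.72 ± 0.212 in WT at day 0. The H2A sum was thus higher at day 5 in KO and lower at day 5 in WT, on 6 to 31 reads per library. These sums carry no test.

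Of the 60 members, 15 passed the filter on low values and were tested: the H2A gene H2ac6, 5 H2B genes, 2 H3 genes and 7 H4 genes. The test was limma on log2(scaled CPM + 0.5) over 18093 genes, with p-values adjusted over all of them and called under 0.05, and fold changes of low genes are understated on this scale. In KO kidneys at day 5 against day 0, 6 members were lower and 1 was higher, where 54.8% of all genes tested were called, 25.4% lower and 29.4% higher. In WT kidneys 6 were lower and 0 higher, where 47.1% of all genes were called, 22.6% lower and 24.5% higher. The share of members called lower, 6 of 15 in each genotype, was thus above that of all genes. The share called higher, 1 of 15 in KO and 0 of 15 in WT, was below it. With higher and lower calls pooled, the share of members was below that of all genes in both genotypes. These shares rest on 15 members, and their differences from all genes were not tested. The median log2 fold change of the tested members was -0.35 in KO and -0.45 in WT, beside 0.07 and 0.04 over all genes tested, and these 15 are the abundant part of the family only. With library size in place of the TMM factors the members split into 4 higher and 4 lower in KO and 0 higher and 4 lower in WT. On that scaling 10114 of all 18093 genes tested were called higher and 2179 lower in KO, and 8560 higher and 2001 lower in WT.

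4 members were lower in both genotypes: H2bc4, H4c8, H4c9 and H4c3. With library size in place of TMM factors these were H2bc4, H4c8 and H4c3. After adjustment for which libraries held Y-linked transcripts they were joined by H2bc21, H2bc6 and H3c15.

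**Figure D2:**
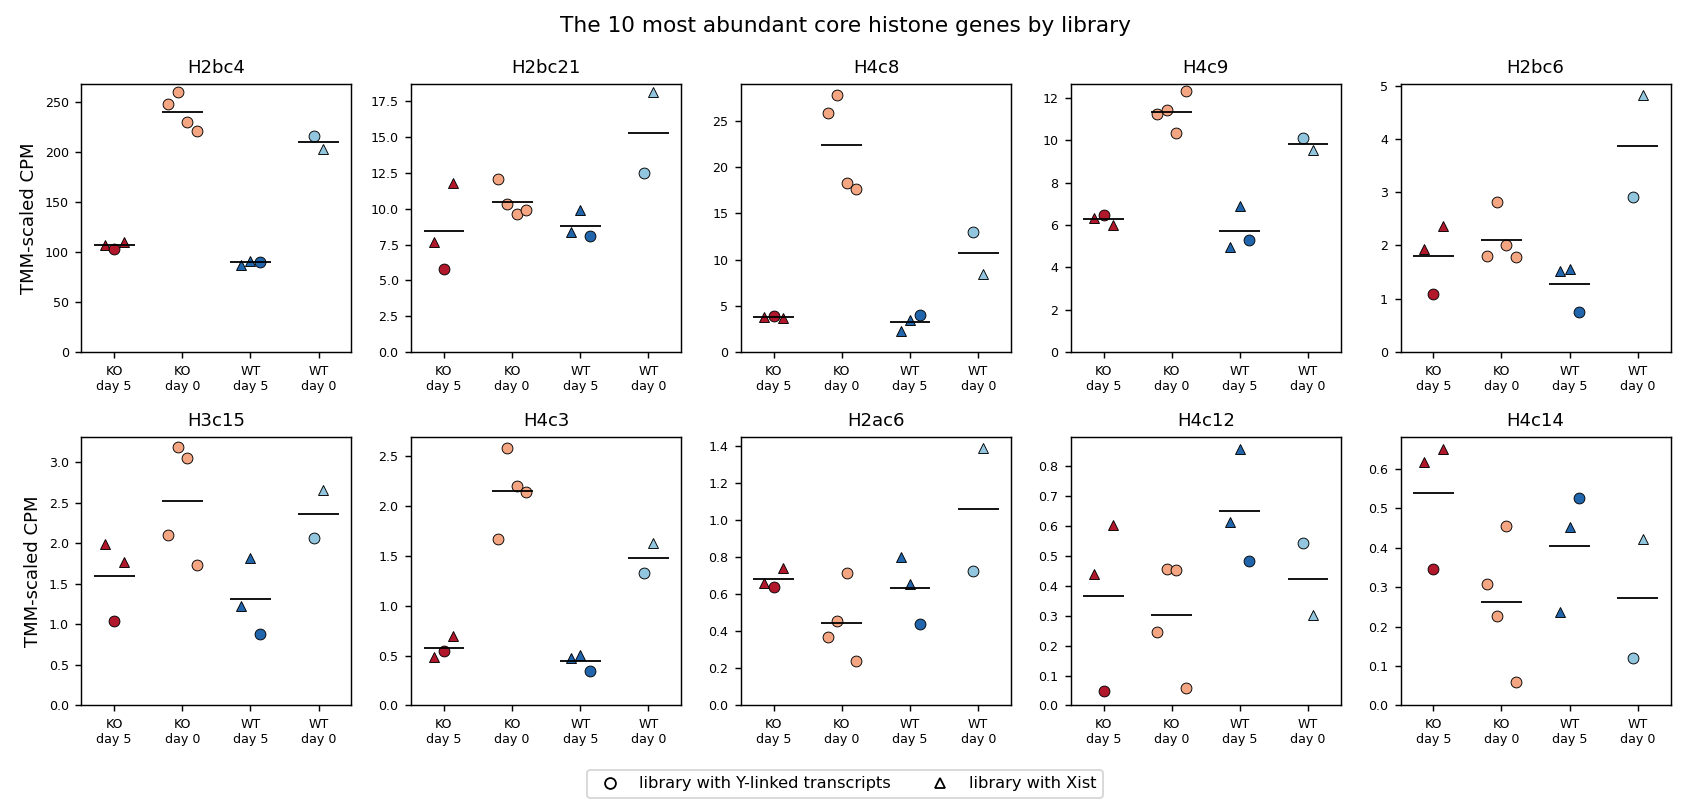
Scaled CPM (vertical axes, each from 0) of the 10 most abundant core histone genes in each library, by group, with a circle for each library with Y-linked transcripts, a triangle for each with Xist and a line at the group mean. H2bc4, H4c8, H4c9 and H4c3 are lower in every day 5 library than in any day 0 library.

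H2bc4 was the most abundant member, at a mean of 141 scaled CPM per kilobase of annotated exon over all libraries. It stood at 107, 102 and 109 scaled CPM in KO at day 5 and at 248, 259, 229 and 221 in KO at day 0. In WT it stood at 87.1, 90.9 and 90.3 at day 5 and at 216 and 203 at day 0. All libraries of day 5 lay below all of day 0, and the spread within groups was small. The log2 fold change was -1.16 ± 0.07 (SE) in KO (adjusted p = 7.46e-08) and -1.22 ± 0.08 in WT (adjusted p = 3.32e-07). Among Y-linked libraries alone the log2 difference was -1.22 in KO (1 library against 4) and -1.25 in WT (1 against 1), and among Xist libraries it was -1.18 in WT (2 against 1). Its fall held in every alternative run.

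H4c8 (ENSMUSG00000060981, chromosome 13, 23531050 to 23531519, plus strand), which encodes histone H4, showed the largest log2 fold change of the tested members in both genotypes on the scale used. By edgeR on the reads, H4c8 had -1.71 in WT, where H2bc12 (-2.01) and H4c3 (-1.74) lay beyond it. It stood at 3.75, 3.89 and 3.67 scaled CPM in KO at day 5 and at 25.9, 27.8, 18.3 and 17.6 in KO at day 0. In WT it stood at 2.32, 3.48 and 3.99 at day 5 and at 12.95 and 8.46 at day 0. The days did not overlap in either genotype, and KO libraries at day 0 lay above those of WT. The log2 fold change was -2.39 ± 0.21 (SE) in KO (adjusted p = 1.19e-06) and -1.57 ± 0.25 in WT (adjusted p = 2.38e-04). Per kilobase of exon its mean was 23.4 scaled CPM, second to H2bc4 among the most abundant members. Within the Y-linked pattern the log2 difference was -2.35 in KO and -1.58 in WT, and within the Xist pattern -1.42 in WT.

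H4c9 and H4c3, which also encode H4, fell less. H4c9 (chromosome 13, 22040636 to 22041362, minus strand) stood at 6.35, 6.46 and 5.99 scaled CPM in KO at day 5 and at 11.2, 11.5, 10.4 and 12.3 in KO at day 0. In WT it stood at 4.96, 6.90 and 5.30 at day 5 and 10.1 and 9.55 at day 0. Its log2 fold change was -0.81 ± 0.13 in KO (adjusted p = 1.81e-04) and -0.74 ± 0.15 in WT (adjusted p = 0.00156), and the days did not overlap. Within the Y-linked pattern H4c9 differed by -0.77 in KO and -0.87 in WT, and within the Xist pattern by -0.66 in WT. The WT call ended with library size in place of TMM factors (log2 fold change -0.35, adjusted p = 0.0806). H4c3 (chromosome 13, 23697635 to 23698454, minus strand) had 11, 11 and 15 reads in KO at day 5 and 27, 34, 34 and 36 in KO at day 0. The WT libraries held 10, 10 and 8 at day 5, against 22 and 27 at day 0, so the days were again apart. The change on the log2 scale was -1.30 ± 0.17 in KO (adjusted p = 3.97e-05) and -1.07 ± 0.21 in WT (adjusted p = 8.96e-04). For H4c3 the Y-linked libraries differed by -1.33 in KO and -1.11 in WT, and the Xist libraries by -1.11 in WT.

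H2bc21 and H2bc6, both H2B genes, were called lower in WT and not in KO. H2bc21 stood at 7.67, 5.81 and 11.8 scaled CPM in KO at day 5 and at 12.1, 10.3, 9.66 and 9.88 in KO at day 0. In WT it stood at 8.37, 9.93 and 8.11 at day 5 and at 12.5 and 18.1 at day 0. The days overlapped in KO, where replicate 3 at day 5 was high, and did not in WT. The log2 fold change was -0.35 ± 0.20 in KO (adjusted p = 0.165) and -0.75 ± 0.24 in WT (adjusted p = 0.0233). Without KO day 5 replicate 3 the KO value was -0.61 (adjusted p = 0.0144). The WT call ended without WT day 5 replicate 1 (adjusted p = 0.0582) or 3 (adjusted p = 0.0621) and without WT day 0 replicate 2 (log2 fold change -0.49, adjusted p = 0.218), and with library size only (-0.34, adjusted p = 0.262). After adjustment for the Y-linked pattern both genotypes were called, at -0.65 in KO (adjusted p = 0.0111) and -0.82 in WT. The H2bc21 values of Y-linked libraries differed by -0.79 in KO and -0.59 in WT, and those of Xist libraries by -0.95 in WT.

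H2bc6 had 44, 22 and 51 reads in KO at day 5 and 29, 37, 31 and 30 in KO at day 0. The WT libraries held 32, 31 and 17 at day 5, against 48 and 80 at day 0. On the scaled level the days overlapped in KO and were apart in WT. The log2 fold change was -0.20 ± 0.27 in KO (adjusted p = 0.539) and -1.30 ± 0.32 in WT (adjusted p = 0.00453). The WT call ended without WT day 0 replicate 2 (-0.98, adjusted p = 0.0635), and after adjustment for the Y-linked pattern the KO value was -0.67 (adjusted p = 0.0156). Among Y-linked libraries H2bc6 differed by -0.70 in KO and -1.45 in WT, and among Xist libraries by -1.39 in WT. An upstream exon of H2bc6 overlaps the linker histone gene H1f4 on the same strand, and 447 of its 50-base stretches (10.1%) are shared with it. H1f4 itself had a log2 fold change of -0.38 ± 0.21 in KO (adjusted p = 0.150) and -1.81 ± 0.26 in WT (adjusted p = 8.31e-05), and its part in the H2bc6 values was not tested.

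The H3 genes gave few reads. H3c15, an H3 gene of the chromosome 3 cluster, had 45, 21 and 38 reads in KO at day 5 and 34, 42, 47 and 29 in KO at day 0. The WT libraries held 26, 36 and 20 at day 5, against 34 and 44 at day 0. The log2 fold change of -0.52 ± 0.25 in KO (adjusted p = 0.0956) and -0.69 ± 0.30 in WT (adjusted p = 0.0784) did not pass. It was called lower in both genotypes after adjustment for the Y-linked pattern (-0.86 in KO, adjusted p = 0.0104, and -0.77 in WT, adjusted p = 0.0204), without KO day 0 replicate 4 in KO (-0.68, adjusted p = 0.0411) and without WT day 5 replicate 2 in WT (-0.88, adjusted p = 0.0406). Y-linked libraries differed in H3c15 by -0.94 in KO and -0.89 in WT, and Xist libraries by -0.66 in WT.

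H3c4, an H3 gene of the chromosome 13 cluster, was the only member called higher. It had 13, 4 and 8 reads in KO at day 5 and 1, 1, 0 and 3 in KO at day 0. The WT libraries held 4, 3 and 11 at day 5, against 4 and 7 at day 0. KO libraries of day 5 lay above those of day 0, and in WT the days overlapped. The log2 fold change was 0.59 ± 0.21 in KO (adjusted p = 0.0309) and -0.12 ± 0.25 in WT (adjusted p = 0.726). The call ended after adjustment for the Y-linked pattern (0.55, adjusted p = 0.0935), without KO day 5 replicate 3 (adjusted p = 0.0700) and without KO day 0 replicate 1 (adjusted p = 0.0606), 2 (adjusted p = 0.0578) or 3 (adjusted p = 0.0802). Without KO day 5 replicate 1 or WT day 5 replicate 3, with only the compared groups or with the stricter filter, the gene did not pass the filter. The size of the KO value depended on the pseudocount, at 1.44 with 0.1 CPM and 0.35 with 1 CPM, and edgeR on the reads gave 2.16 (adjusted p = 0.0248). The Y-linked libraries differed in H3c4 by 0.28 in KO and 0.40 in WT, and the Xist libraries by -0.46 in WT.

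2 further members were called lower in KO on few reads and are named after their values were seen. H2bc12, an H2B gene, had 9, 3 and 4 reads in KO at day 5, 12, 7, 10 and 7 in KO at day 0, 1, 1 and 2 in WT at day 5 and 6 and 3 in WT at day 0. It changed by -0.55 ± 0.18 on the log2 scale in KO (adjusted p = 0.0214), and the WT value was -0.45 ± 0.22 (adjusted p = 0.108). With a pseudocount of 0.1 CPM the WT value was -1.17 (adjusted p = 0.0432), and by edgeR on the reads it was -2.01 (adjusted p = 0.0336). The H4 gene H4c4 had 6, 3 and 6 reads in KO at day 5 and 9, 9, 8 and 7 in KO at day 0, with 6, 3 and 11 in WT at day 5 and 8 and 5 in WT at day 0. The H4c4 value was -0.51 ± 0.19 in KO (adjusted p = 0.0328) and -0.16 ± 0.22 in WT (adjusted p = 0.585). Both KO calls ended with library size only (H2bc12 -0.35, adjusted p = 0.102, and H4c4 -0.32, adjusted p = 0.144) and after adjustment for the Y-linked pattern (H2bc12 -0.53, adjusted p = 0.0689, and H4c4 -0.41, adjusted p = 0.151). The H2bc12 call also ended without KO day 5 replicate 2 (adjusted p = 0.0854) or 3 (adjusted p = 0.0704), and the H4c4 call without KO day 5 replicate 1 (adjusted p = 0.0572) or 2 (adjusted p = 0.114) or KO day 0 replicate 1 (adjusted p = 0.0573).

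The other tested members did not pass in either genotype. H2ac6, the H2A gene beside H2bc4, had 15, 13 and 16 reads in KO at day 5 and 6, 6, 11 and 4 in KO at day 0, and 17, 13 and 10 in WT at day 5 and 12 and 23 in WT at day 0. Its log2 fold change was 0.35 ± 0.22 in KO (adjusted p = 0.194) and -0.44 ± 0.26 in WT (adjusted p = 0.182). Y-linked libraries differed in H2ac6 by 0.30 in KO and -0.39 in WT, and Xist libraries by -0.62 in WT. H2bc8 had 13, 1 and 12 reads in KO at day 5 and 0, 2, 0 and 4 in KO at day 0, with 9, 7 and 14 in WT at day 5 and 8 and 10 in WT at day 0. The log2 value was 0.54 ± 0.25 in KO (adjusted p = 0.0878), called without KO day 5 replicate 2 (0.85, adjusted p = 0.00638), and -0.12 ± 0.30 in WT. Within the Y-linked pattern H2bc8 differed by -0.10 in KO and 0.18 in WT, and within the Xist pattern by -0.31 in WT. H4c12 had 10, 1 and 13 reads in KO at day 5, 4, 6, 7 and 1 in KO at day 0, 13, 17 and 11 in WT at day 5 and 9 and 5 in WT at day 0. H4c14 had 14, 7 and 14 reads in KO at day 5, 5, 3, 7 and 1 in KO at day 0, 5, 9 and 12 in WT at day 5 and 2 and 7 in WT at day 0. The days overlapped for H4c12 and H4c14 in both genotypes. H4c12, H4c14 and H4c1 had 97, 86 and 61 reads in all and log2 fold changes of 0.08 ± 0.27, 0.46 ± 0.23 and -0.14 ± 0.22 in KO and 0.32 ± 0.32, 0.24 ± 0.27 and -0.21 ± 0.27 in WT. Among Y-linked libraries H4c12 differed by -0.52 in KO and -0.089 in WT and H4c14 by 0.17 in KO and 0.72 in WT, and among Xist libraries in WT they differed by 0.62 and -0.14.

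**Figure D3:**
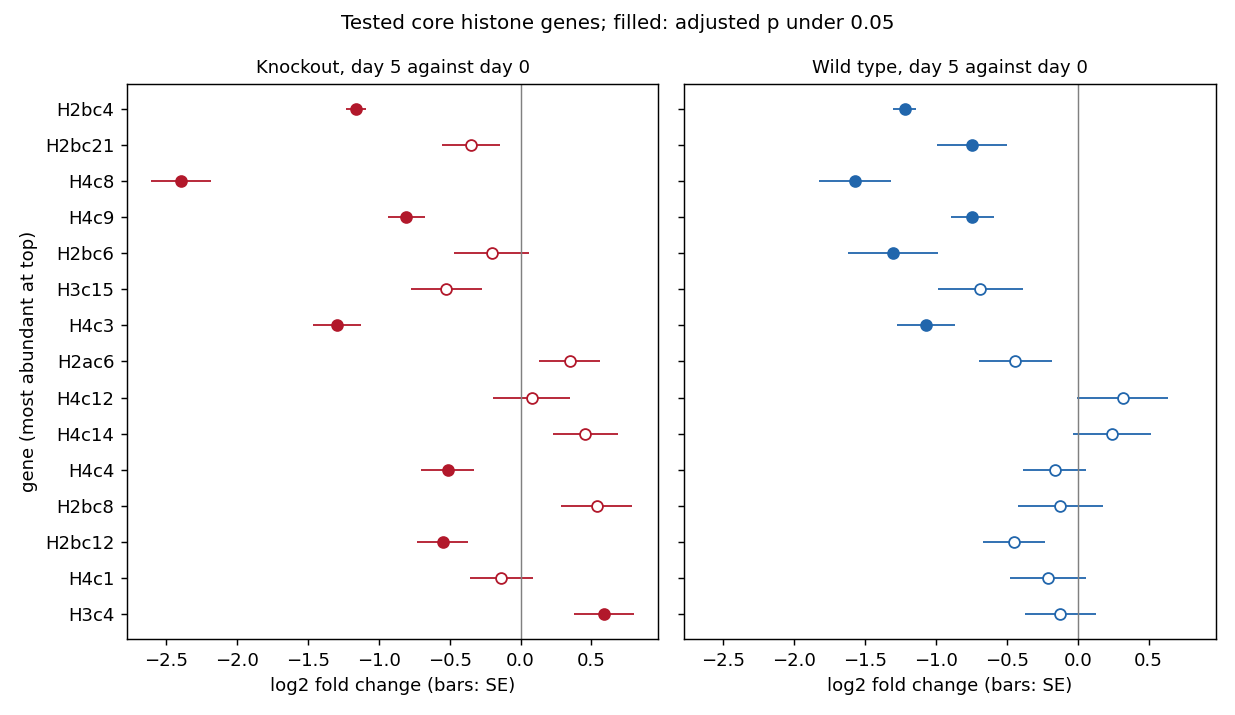
Log2 fold change (horizontal axis, bars are the SE) of the 15 tested core histone genes for day 5 against day 0, in KO and in WT kidneys, with genes in order of abundance and filled points where the adjusted p was under 0.05. H4c8 lies farthest to the left in both, at -2.39 in KO and -1.57 in WT, and H3c4 in KO is the only filled point to the right of 0.

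The 45 members that did not pass the filter together held 2.35 ± 0.561 scaled CPM in KO at day 5 (n = 3), 1.54 ± 0.334 in KO at day 0 (n = 4), 2.48 ± 0.166 in WT at day 5 (n = 3) and 2.45 ± 0.382 in WT at day 0 (n = 2). The most read of them were the H4 gene H4c11 with 73 reads, the H2B gene H2bc9 with 66, and the H3 genes H3c3 with 37 and H3c6 with 34. H4c11 had 3, 5 and 10 reads in KO at day 5, 4, 3, 6 and 2 in KO at day 0, 5, 14 and 6 in WT at day 5 and 8 and 7 in WT at day 0. H2bc9 had 10, 2 and 9 reads in KO at day 5, 1, 4, 8 and 6 in KO at day 0, 9, 1 and 4 in WT at day 5 and 3 and 9 in WT at day 0. Neither set the days apart. H3c3 had 2, 6 and 5 reads in KO at day 5, 0, 2, 0 and 1 in KO at day 0, 4, 4 and 11 in WT at day 5 and 2 and 0 in WT at day 0. H3c6 had 3, 1 and 10 reads in KO at day 5, 1, 1, 2 and 2 in KO at day 0, 6, 2 and 2 in WT at day 5 and 1 and 3 in WT at day 0.

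Between the genotypes no member was called. At day 5, limma called 0 members in KO against WT, where 0.0% of all genes were called, and edgeR on the reads called 0. The unadjusted p of limma was under 0.05 for 1 of the 15 members tested and for 1025 of all 18093 genes tested. That member was H2bc4, with a log2 fold change of 0.25 ± 0.07 (SE, adjusted p = 0.767), all 3 KO libraries lying above all 3 of WT. At day 0 limma called 0 members, where 0.0166% of all genes were called, and edgeR called 0. An unadjusted p under 0.05 was found for 8 of the 15 members and for 2709 of the 18093 genes. H4c8 led these 8 members with a log2 fold change of 1.03 ± 0.24 (adjusted p = 0.113). It was 22.4 ± 5.20 scaled CPM in KO (SD, n = 4) and 10.7 ± 3.18 in WT (SD, n = 2), with all 4 KO libraries above both of WT. Without WT day 0 replicate 1 the H4c8 value was 1.33, and without replicate 2 it was 0.75. The first of these runs set 4 Y-linked KO libraries against 1 WT library with Xist. Genotype and pattern cannot be told apart there. In the alternatives that kept both WT libraries of day 0, the adjusted p of H4c8 ran from 0.0882 to 0.275. All 4 KO libraries are Y-linked, as is the WT library with 12.95, and adjusted for that pattern the value was 0.86 (adjusted p = 0.152).

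The other members under an unadjusted p of 0.05 at day 0 moved both ways. H2bc4 (0.19 ± 0.08) and H2bc12 (0.49 ± 0.21) stood higher in KO. H2bc8 (-0.82 ± 0.28), H2bc6 (-0.73 ± 0.30), H2ac6 (-0.71 ± 0.24), H3c4 (-0.52 ± 0.24) and H2bc21 (-0.50 ± 0.23) stood lower. Their adjusted p ran from 0.214 to 0.330. All 4 KO libraries of day 0 are Y-linked, so genotype overlaps with this pattern. Each member that stood lower in KO was higher in the WT library with Xist than in the Y-linked WT library. H2bc21, for example, stood at 18.1 scaled CPM in the former and 12.5 in the latter. H2bc4 and H2bc12 were lower in the WT library with Xist. Limma adjusted for the pattern called 0 members at day 0. For the difference between the KO change and the WT change limma called 0 members, where 0.00553% of all genes were called. Limma adjusted for the Y-linked pattern called 0, as did edgeR. An unadjusted p under 0.05 was found for 3 members and for 1374 of the 18093 genes. The 3 members were H2bc6 (1.10 ± 0.41, adjusted p = 0.616), H4c8 (-0.82 ± 0.33, adjusted p = 0.633) and H2ac6 (0.79 ± 0.34, adjusted p = 0.648). A response of these genes that differs between the genotypes was therefore not detected at this size of study, and a missed threshold does not show that the genotypes respond alike.

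Most genes of DNA replication rose. In a list of 34 genes of S phase and replication, 33 were tested, and 26 rose and 1 fell in KO at day 5 against day 0, while 26 rose and 2 fell in WT. The medians were 0.69 in KO and 0.84 in WT. Uhrf1, which recognises newly replicated DNA, rose by 2.18 ± 0.18 in KO (adjusted p = 7.56e-07) and 2.42 ± 0.22 in WT (adjusted p = 2.29e-06). Lig1, the ligase that joins Okazaki fragments, rose by 1.49 ± 0.15 in KO and 1.53 ± 0.18 in WT, and the helicase subunit gene Mcm4 by 1.06 ± 0.11 in KO and 1.12 ± 0.13 in WT. These 3 genes kept their direction with each scaling and after adjustment for the Y-linked pattern.

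The chaperones that hand histones to DNA moved in part with them. With library size only, 10114 of all 18093 genes tested were called higher in KO and 8560 in WT, against which the list counts on that scaling have to be read. Of 18 chaperones tested, 8 rose and 1 fell in KO and 8 rose and 2 fell in WT, with medians of 0.21 and 0.20. In the main analysis 29.4% of all genes tested were called higher and 25.4% lower in KO. In WT these shares were 24.5% and 22.6%, and the counts of each list have to be read beside them. With library size only, 16 rose and 0 fell in KO and 15 rose and 0 fell in WT. Asf1b, a chaperone of H3 and H4, rose by 1.52 ± 0.22 in KO and 1.47 ± 0.27 in WT. Chaf1b, a subunit of the CAF-1 complex that deposits H3 and H4 on newly made DNA, rose by 1.16 ± 0.28 and 1.35 ± 0.34. Ssrp1, a subunit of FACT, rose by 0.39 ± 0.07 in KO and 0.31 ± 0.08 in WT. Rbbp4, a histone-binding protein of several complexes, had a log2 fold change of -0.35 ± 0.07 in KO and -0.29 ± 0.08 in WT, called lower in both, and 0.10 and 0.13 with library size only.

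Few genes that make and trim histone mRNA passed the test. Of 20 tested, 6 rose and 2 fell in KO and 1 rose and 2 fell in WT, with medians of 0.12 and 0.06, and with library size only 19 rose and 0 fell in KO and 14 rose and 0 fell in WT. Lsm11, a part of the U7 particle that cuts histone mRNA, rose by 0.51 ± 0.12 in KO (adjusted p = 0.00307) and 0.52 ± 0.14 in WT (adjusted p = 0.00940). Cpsf2, a subunit of the cleavage complex, rose in KO (0.27 ± 0.09, adjusted p = 0.0183). Cpsf3, the cutting subunit, fell in WT (-0.29 ± 0.08) and Ncbp1, of the cap-binding complex, fell in KO (-0.42 ± 0.10), with values of 0.13 and 0.02 with library size only.

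All 11 listed histone variants, whose making is not confined to S phase, were tested. In KO 3 rose and 1 fell and in WT 4 rose and 1 fell, with medians of 0.09 and 0.07. With library size only, 9 rose and 1 fell in KO and 8 rose and 0 fell in WT. Cenpa, the H3 variant of the centromere, rose by 1.23 ± 0.19 in KO and 1.58 ± 0.22 in WT. H2ax, the variant phosphorylated at DNA breaks, rose by 0.48 ± 0.15 and 0.58 ± 0.18, and Macroh2a2 by 0.52 ± 0.18 and 0.69 ± 0.22. H2aj, an H2A variant, had a log2 fold change of -1.03 ± 0.17 in KO and -0.70 ± 0.20 in WT, called lower in both, and was not called in WT with library size only (-0.28, adjusted p = 0.235).

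The linker histones, which bind the DNA between nucleosomes, gave 5 tested genes of 8, of which 0 rose and 2 fell in KO and 1 rose and 3 fell in WT. The medians were -0.38 in KO and -0.65 in WT, and with library size only 1 rose and 0 fell in KO and 1 rose and 2 fell in WT. H1f2 stood at 88.4 scaled CPM in KO at day 5, 148 in KO at day 0, 73.8 in WT at day 5 and 161 in WT at day 0. Its log2 fold change was -0.75 ± 0.15 in KO (adjusted p = 0.00106) and -1.12 ± 0.18 in WT (adjusted p = 2.38e-04). H1f0, the variant of resting cells, had -0.69 ± 0.11 in KO and -0.65 ± 0.13 in WT. H1f10 rose in WT (1.23 ± 0.36, adjusted p = 0.0132). With library size only, H1f0 was not called in either genotype (adjusted p = 0.0575 in KO and 0.141 in WT) and H1f2 not in KO (adjusted p = 0.0979).

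**Figure D4:**
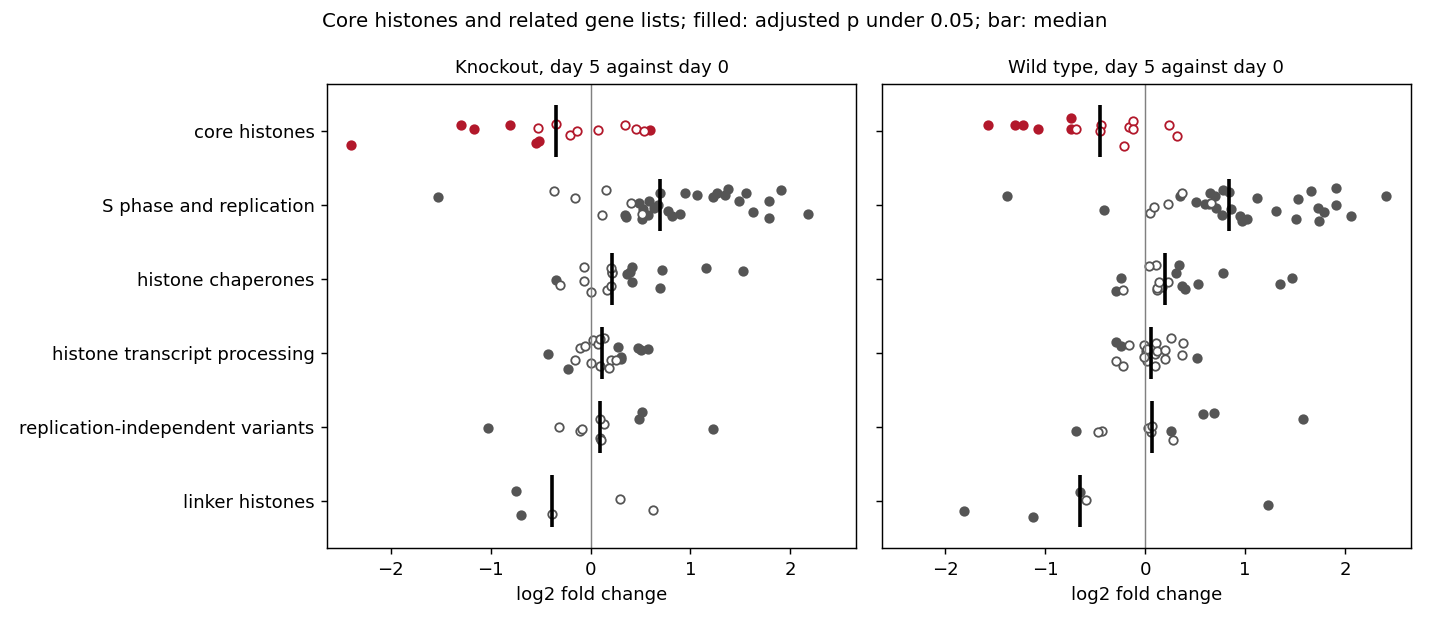
Log2 fold change (horizontal axis) of each tested gene for day 5 against day 0, in KO and in WT kidneys, for the core histone genes and the 5 related lists, with a bar at each median and filled points where the adjusted p was under 0.05. The medians of the core histones lie at -0.35 in KO and -0.45 in WT, and those of the S phase list at 0.69 in KO and 0.84 in WT.

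Markers of several cell types moved with the day. The summed level of 4 proximal tubule markers was 1587 to 3174 scaled CPM in KO at day 5, 9549 to 10839 in KO at day 0, 1320 to 1982 in WT at day 5 and 8591 to 9215 in WT at day 0, and all 4 markers fell in both genotypes. The sum of 3 leukocyte markers was 180 to 186 in KO at day 5, 35.7 to 46.0 in KO at day 0, 166 to 227 in WT at day 5 and 32.0 to 38.1 in WT at day 0, and all 3 rose in both genotypes. The 3 macrophage markers rose likewise, with sums of 194 to 204 in KO at day 5, 83.7 to 100.36 in KO at day 0, 158 to 215 in WT at day 5 and 87.1 to 93.4 in WT at day 0. The 3 T cell markers reached 4.88 to 7.48 in KO at day 5 and 4.12 to 9.12 in WT at day 5, against 2.02 to 3.46 in KO at day 0 and 1.75 to 1.82 in WT at day 0. Neutrophil markers summed to 3.16 to 27.2 in KO at day 5, 0.742 to 1.37 in KO at day 0, 28.2 to 58.5 in WT at day 5 and 1.09 to 2.05 in WT at day 0. Thick ascending limb markers fell in part (2 of 2 in KO, 1 of 2 in WT), with sums of 1048 to 2635 in KO at day 5, 3077 to 4328 in KO at day 0, 1784 to 2046 in WT at day 5 and 3377 to 4813 in WT at day 0. Of 2 podocyte markers 1 fell in each genotype, with sums of 39.9 to 76.2 in KO at day 5, 78.4 to 87.8 in KO at day 0, 46.3 to 77.2 in WT at day 5 and 97.5 to 151 in WT at day 0. Of 3 erythroid markers 2 rose in WT and 0 in KO, and their sum was 91.96 to 141 in KO at day 5, 45.4 to 116 in KO at day 0, 121 to 2028 in WT at day 5 and 102 to 113 in WT at day 0. Collecting duct, endothelial and B cell markers were not called in the main analysis. With library size only, endothelial markers rose (2 of 2 in both genotypes) as did 1 of 2 B cell markers in WT, and after adjustment for the Y-linked pattern 1 of 2 collecting duct markers fell in both genotypes and 1 of 2 endothelial markers rose in KO. Mitochondrial transcripts took 3.89% to 4.34% of the reads at day 5 and 8.31% to 9.26% at day 0. No marker was at 0 reads. The part of these shifts in the core histone values was not tested.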

How the data were processed

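RNA-seq of 12 left kidney samples was analysed from 1 table. Per the submitters' processing notes, the authors used STAR, SAMtools, HTSeq and GRCm38.p6, without versions, and the deposited values are CPM. Each column divided by its smallest step gave whole reads (all 665652 values within 0.001). Genes were kept by filterByExpr on these reads (minimum count 10, total 15), which left 18093. The CPM, divided by TMM factors, was fitted as log2(CPM + 0.5) with limma 3.58.1 (trend) in R 4.3.3 over 4 groups, with Benjamini-Hochberg adjustment over all genes tested. Alternatives were edgeR 4.0.16 on the reads, other pseudocounts (0.1 and 1 CPM), filters and scalings, a sex-pattern covariate, only the compared groups, and each library left out. The script was tested on simulated data.

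The members and lists were chosen with earlier results of these data known. Values per library (scaled CPM, or reads for members with few) are given for the 10 members of highest mean CPM, the 4 of smallest adjusted p in each direction of either obstruction comparison, any member called between genotypes or in the interaction (none), and the 4 most read untested members. Up to 4 genes per list are named, by the larger of both adjusted p, and 1 gene that this names is not reported here. All 60 identifiers matched GENCODE M21, whose transcripts gave the 50-base stretches. Replicate numbers follow accession order and pair nothing. Figures were drawn with matplotlib 3.10.9.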

Additional observations from a re-analysis of the deposited data

Results flagged for a closer look

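In KO at day 0 the summed level of the H2A genes was 0.357 scaled CPM in replicate 4 and 0.680 to 0.713 in the other 3 libraries, so that library stood apart from its group. The sum rests on 6 reads there and 9 to 11 in the others. Of 21 groups of 4 values checked this way, about 1 in 20 would stand out by chance.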

How the results depend on the processing

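The count of members called higher in KO after obstruction, 1 in the main analysis, was 0 with the stricter filter, 0 with the sex-pattern covariate, 0 with only the compared groups and 4 with library size only, and 0 to 2 with a library left out. With library size only, 10114 of all 18093 genes tested were called higher in KO. The count lower in KO ran from 4 to 7 and in WT from 4 to 7 with a library left out, 4 in KO without KO day 5 replicate 2 or KO day 0 replicate 1 and 4 in WT without WT day 0 replicate 2. For KO against WT at day 0, leaving out a WT library of that day left 1 library in the group, so no count is given. The summed level on CPM as deposited was 154 in KO at day 5, 247 in KO at day 0, 137 in WT at day 5 and 229 in WT at day 0. With library size only, changes turned in sign for H2bc21 (0.078) and H2bc6 (0.15) in KO and for H4c4 (0.0063), H2bc8 (0.088) and H3c4 (0.030) in WT. With the sex-pattern covariate they turned for H4c12 (-0.15) and H4c1 (0.24) in KO. With a library left out, the lowest and highest values passed 0 for H2bc6 (-0.38 to 0.043), H4c12 (-0.13 to 0.37) and H4c1 (-0.31 to 0.0043) in KO, and for H4c14 (-0.044 to 0.53), H4c1 (-0.54 to 0.12) and H3c4 (-0.28 to 0.036) in WT. None of these was a called change. The cause was not tested. The falls of H2bc4, H4c8 and H4c3 stayed called in both genotypes in all alternatives run, and that of H4c9 in all but library size only in WT. The interaction was not run with only the compared groups, since it needs all 4. No paired analysis was possible because the labels give no replicate numbers. Members with few reads limit what can be seen: 43 of the 60 had at most 50 reads.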
